A study of Mus musculus with 8 samples.

Results

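Guanylate-binding proteins (GBPs) and immunity-related GTPases (IRGs) are among the proteins that interferon-gamma induces most strongly in mouse cells, and 10 of them are described here in mouse tumors: Gbp2, Gbp3, Gbp4, Gbp5, Gbp6, Gbp7, Iigp1, Igtp, Irgm1 and Irgm2. They were taken by gene symbol from the 25766 entries of the deposited table, and 10 of 10 passed the filter on low counts. The RNA-seq libraries came from 8 subcutaneous tumors that grew from MC38-OVA, cells of a colon adenocarcinoma of the mouse to which ovalbumin was added as a model antigen. In the shXBP1 group (4 tumors) the injected cells carried a hairpin against Xbp1, whose product drives transcription in the unfolded protein response, and in the shNT group (4 tumors) they carried the hairpin labelled NT. Both groups grew in female C57BL/6J mice, although another label field gives C57BL/5J, and mouse age, tumor age, the number of hairpins and whether the lines were clones are not stated in the labels. Total RNA came from whole tumors, so tumor cells and host cells contributed to each library, and in such bulk samples fewer cells of a type and less RNA per cell cannot be told apart. Whether each tumor grew in a separate mouse is not stated, so the p-values refer to the spread among these tumors.

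GBPs are large dynamin-like GTPases and IRGs are smaller ones, and both are made after interferon-gamma binds its receptor, with the transcription factor IRF1 among those that turn on their genes. They assemble on membranes, best known on the vacuoles of parasites and bacteria inside macrophages, where effectors such as Iigp1 and the GBPs break the vacuole and the regulators Irgm1, Irgm2 and Igtp protect the cell's own membranes. In tumors their transcripts are widely used as a readout of interferon-gamma exposure, and they can come from leukocytes, stroma or the tumor cells themselves.

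The libraries held 29070605 to 36012997 counts each. Xbp1 itself had 77.2, 76.0, 73.7 and 56.6 CPM in shXBP1 tumors 1 to 4, against 97.3, 96.0, 103 and 109 CPM in shNT tumors 1 to 4, with no overlap between groups (log2 fold change -0.51, SE 0.10, edgeR quasi-likelihood adjusted p = 0.00255). The labelled cell type is a colon adenocarcinoma cell. Of 6 epithelial markers 0 were called, and Krt8, Krt18 and Cldn7 were below the filter in these tumors. Epcam averaged 0.465 ± 0.248 CPM in shXBP1 tumors and 0.147 ± 0.183 CPM in shNT tumors (SD, n = 4 each). Krt19 averaged 0.170 CPM in shXBP1 tumors and 0.564 CPM in shNT tumors. Cdh1 had the highest level of the 6, with means of 8.31 CPM in shXBP1 tumors and 5.93 CPM in shNT tumors. Its groups did not overlap, although it was not called (log2 fold change 0.49, edgeR quasi-likelihood adjusted p = 0.0597).

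The promoter windows of the members are shown first because they carry a sequence feature that the choice of members did not use directly. The families were chosen as ones that interferon-gamma induces, so the shares below are a description and not a test. Near-copies such as Igtp and Irgm2 are not independent cases. RefSeq windows on GRCm38.p6, from 250 bases before to 50 after each annotated start, were matched for 7 of 10 members, with 8 windows because Gbp3 has 2 annotated starts, and Gbp4, Gbp6 and Iigp1 are named only. Each window was searched on both strands for an interferon-stimulated response element (ISRE) pattern, GAAA, any 2 bases and GAAA again, and for an interferon-gamma activated site (GAS) pattern, TTCNNNGAA. The first pattern was in 7 of the 8 windows, at least 1 for each of the 7 genes, and in 3.44% of 32851 windows of the same length. The second was in 4 of the 8 windows and in 8.30% of all windows. Both patterns together were present in 4 of the 8 windows, those of Gbp5, Gbp7, Igtp and Irgm2, and in 0.454% of all windows. The second Gbp3 window held neither, and the Gbp3 positions and letters given here are those of the first. The 5 windows below, printed 5′ to 3′ along the gene with both kinds of match in capitals, were chosen because they show the near-identical Igtp and Irgm2 starts, the doubled matches of Irgm1 and Gbp3, and the more distant arrangement of Gbp5.
Igtp: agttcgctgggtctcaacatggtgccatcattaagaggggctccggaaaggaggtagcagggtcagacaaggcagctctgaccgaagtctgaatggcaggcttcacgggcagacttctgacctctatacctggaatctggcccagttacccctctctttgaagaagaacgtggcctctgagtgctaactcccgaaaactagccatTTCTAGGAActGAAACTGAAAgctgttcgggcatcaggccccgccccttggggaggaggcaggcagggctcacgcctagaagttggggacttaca
Irgm2: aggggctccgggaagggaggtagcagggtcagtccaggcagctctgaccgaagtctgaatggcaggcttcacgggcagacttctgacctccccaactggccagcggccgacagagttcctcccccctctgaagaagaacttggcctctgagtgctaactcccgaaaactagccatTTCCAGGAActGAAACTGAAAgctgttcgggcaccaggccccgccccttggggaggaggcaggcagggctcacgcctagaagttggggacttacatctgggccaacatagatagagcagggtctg
Irgm1: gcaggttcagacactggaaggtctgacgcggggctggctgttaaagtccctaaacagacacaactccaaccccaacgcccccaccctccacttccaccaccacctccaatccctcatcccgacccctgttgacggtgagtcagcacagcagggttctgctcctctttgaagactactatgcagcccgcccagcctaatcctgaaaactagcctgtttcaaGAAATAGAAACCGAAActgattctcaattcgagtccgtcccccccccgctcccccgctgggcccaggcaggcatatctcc
Gbp3: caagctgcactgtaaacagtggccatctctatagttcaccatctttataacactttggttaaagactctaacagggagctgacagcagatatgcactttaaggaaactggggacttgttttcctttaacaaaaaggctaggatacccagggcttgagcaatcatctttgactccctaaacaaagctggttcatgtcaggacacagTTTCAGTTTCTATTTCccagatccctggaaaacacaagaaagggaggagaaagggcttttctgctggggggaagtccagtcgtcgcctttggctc
Gbp5: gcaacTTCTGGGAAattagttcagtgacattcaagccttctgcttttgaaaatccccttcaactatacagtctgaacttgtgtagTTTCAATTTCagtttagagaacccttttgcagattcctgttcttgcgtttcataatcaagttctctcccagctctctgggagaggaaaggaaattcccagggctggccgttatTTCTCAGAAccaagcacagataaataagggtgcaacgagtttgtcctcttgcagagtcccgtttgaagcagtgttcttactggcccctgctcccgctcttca
The windows lie at chr11:58199306-58199605 (plus strand), chr11:58214727-58215026 (plus strand), chr11:48871371-48871670 (minus strand), chr3:142559794-142560093 (plus strand) and chr3:142496684-142496983 (plus strand) in the same order.

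Counting the start base as 0, the ISRE match of Igtp begins at -34 and that of Irgm2 at -64, and in both it follows a GAS match by 2 bases. The Igtp and Irgm2 windows aligned over 271 columns with 91.1% identity. Igtp and Irgm1 aligned over 44 columns with 79.5% identity, a stretch that spans the matches of both. In Irgm1 a pair of ISRE matches overlaps, at -30 and -24, and in Gbp3 another pair overlaps on the opposite strand, at -45 and -39. Gbp5 had its ISRE match farther out, at -165, and its GAS matches at -245 and -52. Of the windows not printed, Gbp2 had 1 ISRE match at -59, and Gbp7 had 1 at -53 with GAS matches at -106 and -87. In 6 of 7 genes the first pattern thus began within 70 bases before the start, and 4 genes (Gbp3, Gbp7, Igtp and Irgm2) shared the same letters, GAAACTGAAA. The shorter pattern AANNGAAA was in 7 of the 8 windows too, but also in 23.9% of all windows. A match describes letters only and is not a measured binding site.

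**Figure D1:**
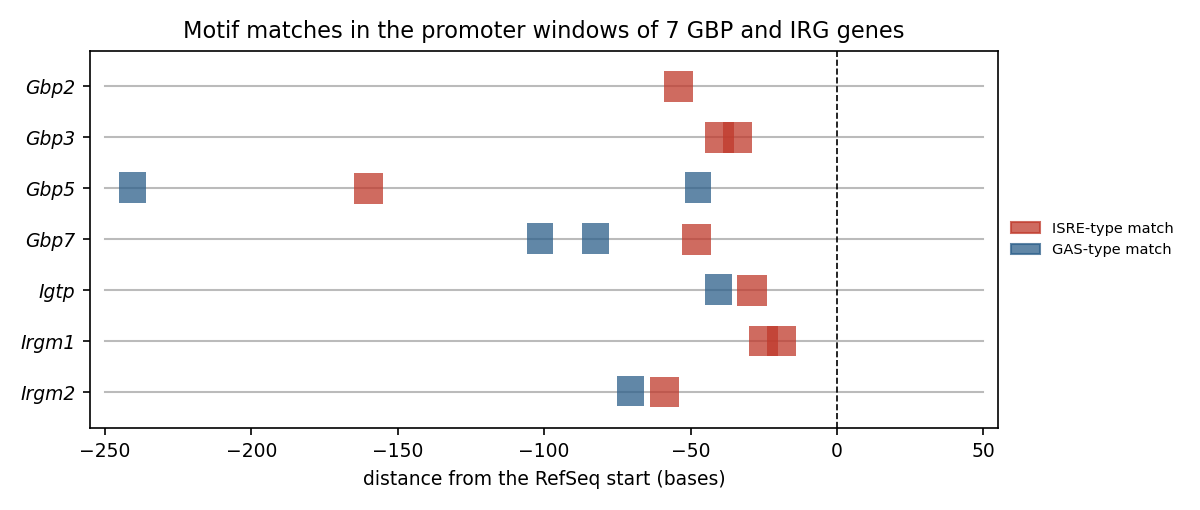
Matches to the ISRE pattern (red) and to the GAS pattern (blue) on either strand in the promoter windows of 7 genes (the first of 2 for Gbp3), plotted by distance in bases from the RefSeq start (dashed line). Red matches lie within 70 bases before the start in every row except Gbp5, where the match begins at -165, and blue matches occur in 4 of the 7 rows.

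All 10 members were higher in shXBP1 tumors, by 1.75-fold for Irgm2 to 3.43-fold for Gbp4, while 16.9% of the 14907 genes tested were called higher (edgeR quasi-likelihood test, two-sided, Benjamini-Hochberg adjusted over all genes tested, threshold 0.05). For 9 of 10 members the lowest shXBP1 tumor lay above the highest shNT tumor, against 16.6% of all genes tested. The median log2 fold change of the members was 1.16, against -0.01 over all genes tested, and 7 of 10 members were called at 2-fold or more, against 7.63% of all genes. Together the 10 genes took 0.866%, 0.951%, 0.788% and 0.495% of all counts in shXBP1 tumors 1 to 4, against 0.378%, 0.273%, 0.389% and 0.314% in shNT tumors 1 to 4. Values below are CPM (counts scaled to library size with TMM factors), which compare tumors for 1 gene and not genes with each other. A log2 fold change is given as shXBP1 minus shNT.

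Gbp2 (ENSMUSG00000028270, chromosome 3, 142620602 to 142638008, plus strand, GRCm38) encodes a prenylated GBP that is recruited to Toxoplasma vacuoles. It had 1989, 2447, 1915 and 1185 CPM in shXBP1 tumors 1 to 4, against 1038, 682, 1059.5 and 846 CPM in shNT tumors 1 to 4. The groups did not overlap, although shXBP1 tumor 4 was only 1.12-fold above the highest shNT tumor, and Gbp2 was 2.08-fold higher (log2 fold change 1.06, SE 0.22, adjusted p = 0.00539). Gbp3 (ENSMUSG00000028268, chromosome 3, 142560026 to 142573209, plus strand) belongs to the same cluster, whose deletion makes mice susceptible to Toxoplasma. Its values were 817, 950.4, 754 and 435 CPM in shXBP1 tumors 1 to 4, against 325, 245, 332 and 301 CPM in shNT tumors 1 to 4. The coefficient of variation was 29.6% in shXBP1 tumors and 13.1% in shNT tumors, and Gbp3 was 2.46-fold higher without overlap (log2 fold change 1.30, SE 0.21, adjusted p = 0.00186). Gbp5 (ENSMUSG00000105504, chromosome 3, 142493978 to 142522344, plus strand) encodes a prenylated GBP that promotes NLRP3 inflammasome assembly in macrophages. It had 356, 411, 319.6 and 199 CPM in shXBP1 tumors 1 to 4, against 95.3, 80.7, 130.5 and 97.9 CPM in shNT tumors 1 to 4. The lowest shXBP1 tumor was 1.52-fold above the highest shNT tumor, and Gbp5 was 3.18-fold higher (log2 fold change 1.67, SE 0.23, adjusted p = 0.000819). Gbp7 (ENSMUSG00000040253, chromosome 3, 142530342 to 142550149, plus strand) encodes a GBP that takes part in delivering oxidase and autophagy proteins to bacterial vacuoles. Its values were 579.5, 665, 580.4 and 371 CPM in shXBP1 tumors 1 to 4, against 327, 227, 314 and 264 CPM in shNT tumors 1 to 4. The groups did not overlap and Gbp7 was 1.94-fold higher (log2 fold change 0.96, SE 0.17, adjusted p = 0.00239). Of the 50-base stretches of these transcripts, 12.7% of those of Gbp7, mostly with the pseudogene Gm43802, and 1.44% to 3.75% of those of the other 3 occur in other genes, and Mir6381 overlaps Gbp2 by 87 bases on the opposite strand.

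Gbp4 and Gbp6 lie in the other GBP cluster, on chromosome 5. Gbp4 (ENSMUSG00000079363, chromosome 5, 105115767 to 105139586, minus strand) had 1169, 1341, 1049 and 602 CPM in shXBP1 tumors 1 to 4, against 347, 235, 367 and 264 CPM in shNT tumors 1 to 4. Each shXBP1 tumor was at least 1.64-fold above the highest shNT tumor, the widest gap of the 10 members, and Gbp4 was 3.43-fold higher (log2 fold change 1.78, SE 0.25, adjusted p = 0.000998). Gbp6 (ENSMUSG00000104713, chromosome 5, 105270702 to 105293698, minus strand) encodes a GBP that also gathers on Toxoplasma vacuoles. It had 702, 714, 565 and 375 CPM in shXBP1 tumors 1 to 4, against 233, 180.3, 287 and 204 CPM in shNT tumors 1 to 4. The groups did not overlap and Gbp6 was 2.60-fold higher (log2 fold change 1.38, SE 0.21, adjusted p = 0.00143). The value of Gbp6 is uncertain as that of a single gene, because 70.7% of the 50-base stretches of its transcripts also occur in other genes, mostly in Gm43302, which overlaps it on the same strand. Gbp4 shares 7.70% of such stretches, and its annotated span overlaps Gbp8 and Gbp9 on the same strand.

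The IRGs comprise 1 effector and 3 regulators. Iigp1 (ENSMUSG00000054072, chromosome 18, 60376027 to 60392634, plus strand) encodes Irga6, an effector that loads onto Toxoplasma vacuoles. It had 1205, 1455, 1185 and 616 CPM in shXBP1 tumors 1 to 4, against 717, 457, 621 and 522 CPM in shNT tumors 1 to 4. This is the member whose groups overlapped: shXBP1 tumor 4 lay below shNT tumors 1 and 3, at 0.859 times the highest of them. Iigp1 was 1.93-fold higher (log2 fold change 0.95, SE 0.25, adjusted p = 0.0208), and this call was lost when any 1 of shXBP1 tumors 1, 2 or 3 or shNT tumors 2 or 4 was left out (adjusted p = 0.0510, 0.0563, 0.0506, 0.0535 and 0.0529).

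Igtp (ENSMUSG00000078853, chromosome 11, 58199556 to 58207591, plus strand) encodes Irgm3, a regulator on the endoplasmic reticulum that is needed for resistance to Toxoplasma. Its values were 876, 803, 703 and 443 CPM in shXBP1 tumors 1 to 4, against 316, 241, 342 and 285 CPM in shNT tumors 1 to 4. The groups did not overlap and Igtp was 2.39-fold higher (log2 fold change 1.25, SE 0.20, adjusted p = 0.00128). Irgm2 (ENSMUSG00000069874, chromosome 11, 58199618 to 58222782, plus strand) encodes a Golgi-associated regulator that restrains caspase-11 in macrophages. It had 321, 316, 285 and 215 CPM in shXBP1 tumors 1 to 4, against 159, 145, 196 and 149 CPM in shNT tumors 1 to 4. Irgm2 rose least of the 10 members, 1.75-fold, yet with the smallest standard error (log2 fold change 0.81, SE 0.13, adjusted p = 0.00104), and its groups did not overlap. The annotated spans of Igtp and Irgm2 overlap by 7974 bases on the same strand, and 11.8% of the 50-base stretches of Igtp and 7.77% of those of Irgm2 occur in other genes, mostly in each other. Irgm1 (ENSMUSG00000046879, chromosome 11, 48861968 to 48871683, minus strand) encodes a regulator known from resistance to mycobacteria and from autophagy. It had 577, 591, 549.6 and 333 CPM in shXBP1 tumors 1 to 4, against 300.3, 214, 273 and 227 CPM in shNT tumors 1 to 4. Irgm1 was 2.02-fold higher without overlap (log2 fold change 1.02, SE 0.18, adjusted p = 0.00212), and shXBP1 tumors 1 to 3 lay between 549.6 and 591 CPM, well above tumor 4.

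**Figure D2:**
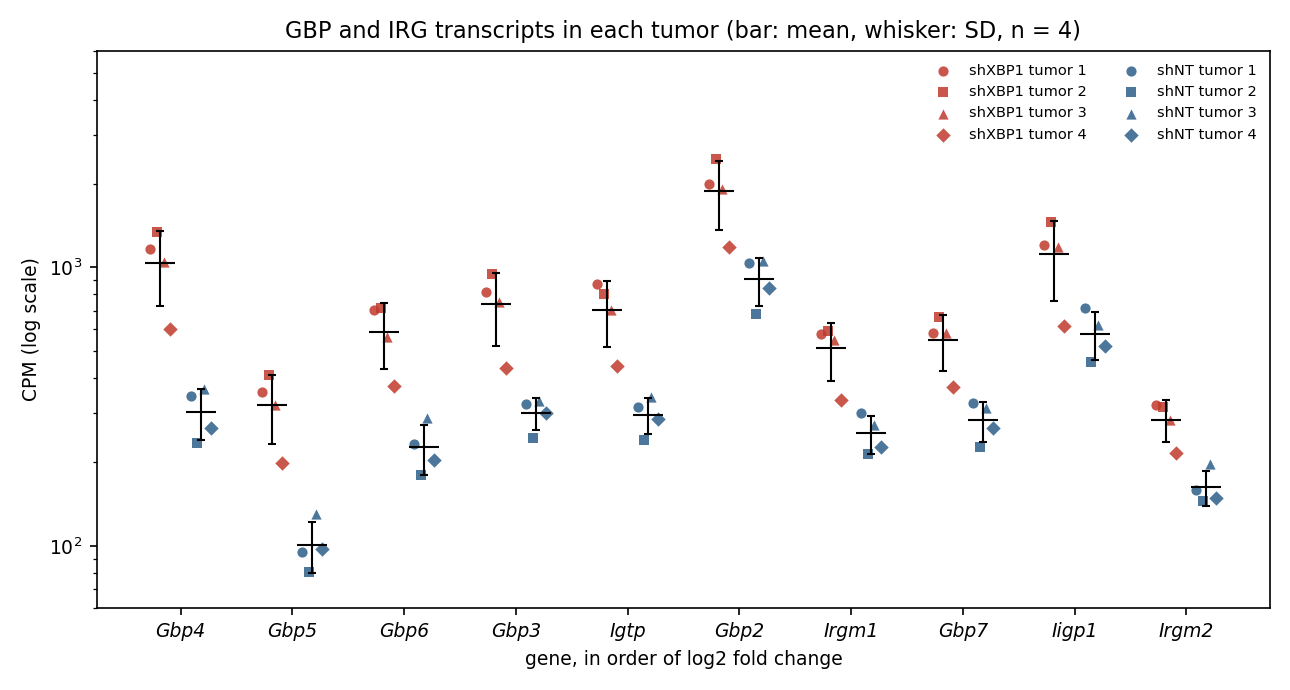
CPM of the 10 genes in each tumor on a log axis, shXBP1 in red left of shNT in blue, with a symbol per tumor number, the mean as a bar and the SD as a whisker (n = 4 each). Diamonds show that shXBP1 tumor 4 is the lowest of its group for all 10 genes, and it reaches into the shNT values in the Iigp1 column.

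The members moved together from tumor to tumor. In shXBP1 tumors, tumor 4 was the lowest for 10 of 10 genes, and tumor 2 was the highest for 8 genes and tumor 1 for 2. Among shNT tumors, tumor 2 was the lowest for 10 of 10 genes, and tumor 3 was the highest for 7 genes and tumor 1 for 3. The coefficient of variation ran from 17.2% (Irgm2) to 31.8% (Iigp1) in shXBP1 tumors, and from 13.1% (Gbp3) to 21.1% (Gbp4) in shNT tumors. Without shXBP1 tumor 4, 10 of 10 members were called higher, against 19.2% of 15101 genes. The authors' deposited table gives all 10 as higher too, with log2 fold changes from 0.79 for Irgm2 to 1.59 for Gbp4 and the largest adjusted p, 0.00216, for Iigp1.

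The sizes of the rises were then compared between members, as the log2 ratio of their CPM in the same tumor, for all 45 pairs (exact two-sided permutation test over the 70 splits of the tumors, Benjamini-Hochberg adjusted over the pairs). Gbp4 rose more than 8 of the 9 other members and Gbp5 more than 8 of 9. In all, 27 pairs differed, each at the smallest p that 70 splits allow (exact permutation p = 0.0286, adjusted p = 0.0476). The widest difference was that of Gbp4 and Irgm2: the log2 ratio of Gbp4 to Irgm2 was 1.86, 2.08, 1.88 and 1.48 in shXBP1 tumors 1 to 4, against 1.12, 0.70, 0.90 and 0.82 in shNT tumors 1 to 4. These ratios did not overlap, and the rise differed by 0.94 on the log2 scale. Gbp4 and Gbp5 themselves differed by 0.10 (exact permutation p = 0.314, adjusted p = 0.354), and their ratios overlapped.

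Igtp and Irgm2 lie side by side and have nearly the same promoter letters. Igtp rose more by 0.42 on the log2 scale, with log2 ratios of 1.45, 1.34, 1.30 and 1.04 in shXBP1 tumors 1 to 4, against 0.99, 0.74, 0.80 and 0.93 in shNT tumors 1 to 4 (exact permutation p = 0.0286, adjusted p = 0.0476). The smallest rises could not be ordered: 0 of the 10 pairs among Gbp2, Gbp7, Iigp1, Irgm1 and Irgm2 passed the test (exact permutation p of 0.171 or more), with differences of 0.04 to 0.23 log2 units. With 1 tumor left out in turn, 0 of 45 pairs passed the adjusted threshold: the smallest exact permutation p, 0.0286, was reached by 20 to 25 pairs and became 0.0514 to 0.0643 after adjustment. Of the 27 pairs, 0 turned round.

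**Figure D3:**
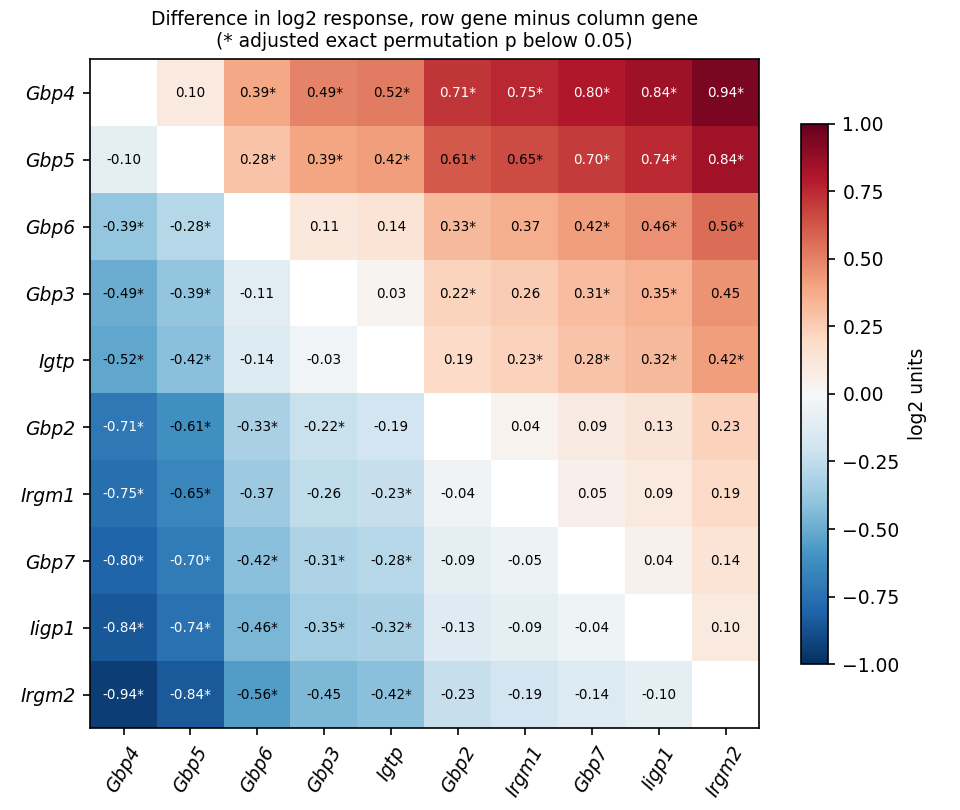
Difference in log2 response (shXBP1 minus shNT) between each pair of genes, row gene minus column gene, in log2 units. The Gbp4 and Gbp5 rows are red and starred (adjusted exact permutation p below 0.05) against every other gene except each other, and the lower right block from Gbp2 to Irgm2 carries no star.

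Levels between genes were compared per length, as the FPKM values deposited by the authors. Gbp2 was the most abundant, with 658 ± 159 FPKM in shXBP1 tumors and 317 ± 56.3 FPKM in shNT tumors (SD, n = 4 each), apart from every other member in both groups. Iigp1 followed with 331 ± 95.0 FPKM in shXBP1 tumors and 173 ± 31.1 FPKM in shNT tumors, then Igtp with 308 ± 72.7 FPKM in shXBP1 tumors and 129.9 ± 16.6 FPKM in shNT tumors and Gbp3 with 248 ± 65.3 FPKM in shXBP1 tumors and 101 ± 10.9 FPKM in shNT tumors. An effector and a regulator of the IRGs thus ranked between GBPs of the chromosome 3 cluster. Gbp4 averaged 207 ± 55.2 FPKM in shXBP1 tumors and 61.1 ± 12.3 FPKM in shNT tumors, and Irgm1 204 ± 43.6 FPKM in shXBP1 tumors and 101 ± 12.4 FPKM in shNT tumors, so that Gbp4 came after Irgm1 in shNT tumors without overlap, while in shXBP1 tumors their values overlapped. Gbp6 averaged 138 ± 31.9 FPKM in shXBP1 tumors and 53.9 ± 13.2 FPKM in shNT tumors, Gbp5 88.7 ± 22.5 FPKM in shXBP1 tumors and 28.8 ± 5.61 FPKM in shNT tumors and Gbp7 86.7 ± 16.5 FPKM in shXBP1 tumors and 45.2 ± 6.34 FPKM in shNT tumors. Gbp5 was the lowest of the 10 in shNT tumors, below Irgm2 without overlap, and ranked eighth in shXBP1 tumors, where it overlapped its neighbours. Irgm2 had 72.2 ± 9.69 FPKM in shXBP1 tumors and 41.3 ± 5.61 FPKM in shNT tumors. In shXBP1 tumors the Gbp2 and Iigp1 values were the only neighbours in the order that did not overlap, and in shNT tumors 4 of 9 neighbours did not. The order changed with the measure: in shXBP1 tumors CPM per kilobase of annotated exons kept 2 of 10 genes at their rank, and the cause was not tested. By that measure Iigp1 moved from rank 2 to rank 4, after Igtp and Gbp3. In shNT tumors Irgm1 and Gbp4 averaged 43.6 and 40.5 CPM per kilobase.

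The relatives of the members, 25 other interferon-inducible GTPases and distant relations listed from general knowledge, were mostly higher: 22 were tested, 12 were higher, against 16.9% of all genes, and 3 were lower, a share near the 13.1% of all genes. The other 7 were not called, and the median log2 fold change was 0.74. Their promoter windows held the ISRE pattern in 6 of the 12 genes that had one, against 3.99% of 27025 genes with a window. All 5 GBPs among them were called higher, with log2 fold changes of up to 2.06. Gbp10 averaged 140.3 ± 52.4 CPM in shXBP1 tumors and 33.7 ± 8.22 CPM in shNT tumors (SD, n = 4 each), 4.17-fold higher (adjusted p = 0.00212), but 73.3% of the 50-base stretches of its transcripts occur in Gbp6. Gbp8 had 147, 173, 139 and 70.7 CPM in shXBP1 tumors 1 to 4, against 31.4, 23.7, 43.1 and 31.6 CPM in shNT tumors 1 to 4, 4.08-fold higher without overlap (log2 fold change 2.03, SE 0.29, adjusted p = 0.0016). Gbp11 was 3.37-fold higher, Gbp9 2.01-fold and Gbp2b 4.08-fold, the last with 2.88 ± 1.45 CPM in shXBP1 tumors and 0.705 ± 0.432 CPM in shNT tumors, with overlapping groups.

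Of the IRG relatives, Ifi47 (Irgd) was higher with a log2 fold change of 1.16 and Gm4951 with 1.26, while Gm4841 was lower (34.5 ± 1.44 CPM in shXBP1 tumors and 53.4 ± 12.7 CPM in shNT tumors; log2 fold change -0.63, SE 0.14, adjusted p = 0.00675). Tgtp1 and Tgtp2 encode Irgb6 copies that load onto Toxoplasma vacuoles ahead of other effectors. Tgtp1 had 477, 558, 446 and 287 CPM in shXBP1 tumors 1 to 4, against 356, 251, 351 and 256 CPM in shNT tumors 1 to 4, with overlapping groups (log2 fold change 0.54, adjusted p = 0.0678), and Tgtp2 had a log2 fold change of 0.57 (adjusted p = 0.064). Of their 50-base stretches, Tgtp1 shares 79.4% with Tgtp2 and Tgtp2 shares 85.8% with Tgtp1, so their counts are uncertain as those of single genes. The same holds for Gvin1 and Gm4070, 2.06-fold and 2.07-fold higher. Mx1 and Mx2, dynamin-like antiviral GTPases, were not called (adjusted p = 0.166 and 0.0688). The atlastins, GTPases that shape the endoplasmic reticulum and are relatives of the GBPs, went both ways: Atl1 was higher by 0.62 on the log2 scale, and Atl2 and Atl3 were lower, with log2 fold changes of -0.30 and -0.39.

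Of 18 genes of the interferon-gamma chain, 15 were higher and 0 were lower, against 16.9% and 13.1% of all genes tested. Their median log2 fold change was 0.80. Ifng, the ligand, had 29.0, 29.4, 24.9 and 8.70 CPM in shXBP1 tumors 1 to 4, against 5.92, 2.93, 3.92 and 5.02 CPM in shNT tumors 1 to 4. The groups did not overlap, tumor 4 was again far below the other shXBP1 tumors, and Ifng was 5.16-fold higher (log2 fold change 2.37, SE 0.40, adjusted p = 0.00273). The receptor chains Ifngr1 and Ifngr2 were higher by 0.58 and 0.37 on the log2 scale. Irf1, a transcription factor that acts at GBP and IRG promoters, had 596, 616, 611 and 542 CPM in shXBP1 tumors 1 to 4, against 326, 283, 399.7 and 298 CPM in shNT tumors 1 to 4, and tumor 4 lay closer to the other shXBP1 tumors than it did for Ifng (log2 fold change 0.86, SE 0.11, adjusted p = 0.000159). Socs1, the feedback inhibitor of this pathway, was 2.67-fold higher (adjusted p = 0.000232). Jak1, Jak2 and Ptpn2, the kinases and a phosphatase of the pathway, were not called, with log2 fold changes of -0.04, 0.24 and 0.06.

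**Figure D4:**
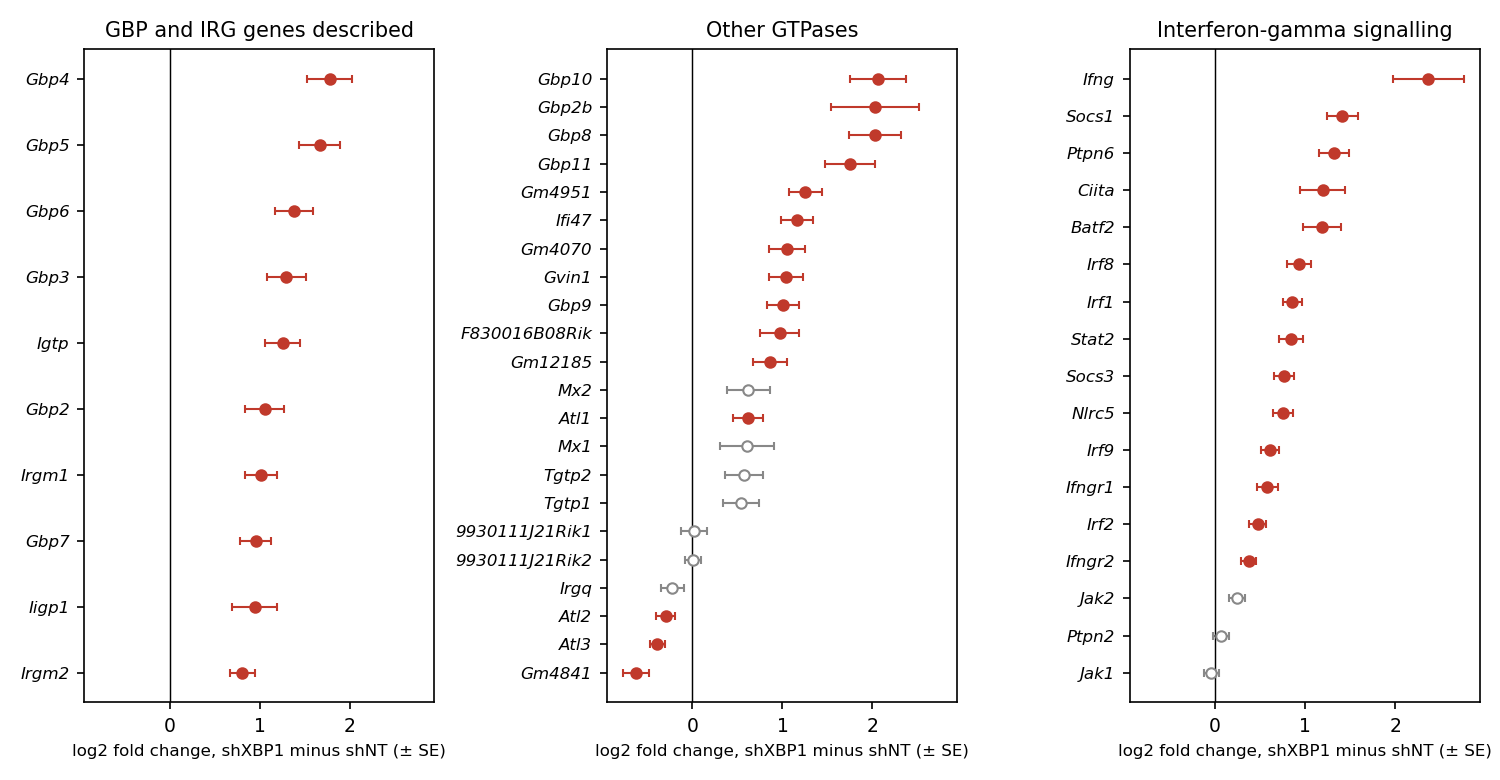
Log2 fold change (shXBP1 minus shNT) with its SE from the edgeR fit for the 10 genes described, for 22 other tested GTPases and for 17 of the 18 genes of interferon-gamma signalling. Filled red points were called at an adjusted p below 0.05 and open grey points were not: 10 of 10, 15 of 22 and 14 of 17 are filled, and 3 of the filled GTPases lie left of 0.

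Type I and type III interferon ligands gave almost no counts. Ifna1, Ifna2, Ifna4, Ifnl2 and Ifnl3 had 0 counts in all 8 tumors, which allows up to 0.0116 CPM each (3 counts over the 8 tumors, counting error only), and Ifnb1 had 0 counts over the shXBP1 tumors and 2 over the shNT tumors. Of the receptors and factors of these interferons, 5 of 6 tested were higher, against 16.9% of all genes tested. Among them were Ifnar2 with a log2 fold change of 0.66 and Tyk2 with 0.60. Genes commonly listed as type I interferon stimulated were higher in 13 of 19 cases (median 0.76), against the same 16.9%, with Zbp1 (1.24), Oas2 (1.54) and Rtp4 (1.03) among the members of that list. Ifit1 (0.65), Ifit2 (0.44), Ifit3 (0.75), Rsad2 (0.51), Oasl1 (0.44) and Ifih1 (0.42) had positive log2 fold changes but were not called. Without shXBP1 tumor 4, 17 of the 19 were called higher, against 19.2% of 15101 genes. In MHC class I presentation, another interferon-gamma programme, 14 of 15 genes were higher, against the same 16.9%, with a median of 0.61. Examples were Tap1, the peptide transporter (0.94), and Psmb9, an immunoproteasome subunit (1.10). The ISRE pattern was found in 10 of 15 type I list genes with a window, 3 of 14 MHC class I genes and 3 of 13 signalling genes.

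Genes of the machinery around the GTPases gave different counts from list to list, to be read beside 16.9% of all genes tested called higher. GBPs open the way to caspase-11 and the inflammasomes, and 8 of 9 such genes were higher (median 1.02). Il1b, the cytokine that inflammasomes release, averaged 86.7 ± 11.4 CPM in shXBP1 tumors and 27.9 ± 3.74 CPM in shNT tumors (3.10-fold, adjusted p = 4.69e-06), Casp4, which encodes caspase-11, had a log2 fold change of 0.72, Gsdmd, the pore-forming gasdermin D, of 0.64, and Nlrp3 of 1.02, and Il18 was not called (adjusted p = 0.087). Of 12 ATG8 and conjugation genes, which place GBPs and IRGs on vacuoles, 1 was higher, Gabarap (0.41, adjusted p = 0.0268), and the median was 0.08. Among 9 ubiquitin ligases and adaptors of such vacuoles, 3 were higher: Lgals3 (0.80), Trim21 (0.63) and Rnf213 (0.40), with a median of 0.11. Prenylation anchors Gbp2 and Gbp5 in membranes, and 0 of 8 genes of that pathway were higher, 2 were lower, against 13.1% of all genes tested, and 6 were not called. Fdps, which makes farnesyl diphosphate, fell to 76.1 ± 21.5 CPM in shXBP1 tumors, against 284 ± 18.6 CPM in shNT tumors (SD, n = 4 each; log2 fold change -1.90, SE 0.17, adjusted p = 5.09e-05), and Icmt, the final carboxyl methyltransferase, had a log2 fold change of -0.27, while the transferase subunits Fnta, Fntb and Pggt1b were not called.

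Most tested markers of host leukocytes were higher too, but not every host marker followed the members from tumor to tumor. Tumor 4, the lowest shXBP1 tumor for all 10 members, was the highest for Pdgfra and S100a8. Pdgfra had 104, 106, 117 and 149 CPM in shXBP1 tumors 1 to 4, and S100a8 had 3.95, 4.24, 2.86 and 4.74 CPM. The fibroblast and neutrophil lists that hold them were mixed. Col1a1, Col1a2, S100a9 and Cxcr2 were also highest in tumor 4 among shXBP1 tumors, but Dcn, Dpt and Csf3r were lowest there. Dcn had 867, 1489, 1003 and 805 CPM in shXBP1 tumors 1 to 4, and Csf3r had 20.8, 16.8, 18.7 and 12.7 CPM. The counts of markers called stand beside 16.9% of all genes tested that were higher and 13.1% that were lower. Of 5 leukocyte markers 5 were higher, with a summed level of 601 to 1038 CPM in shXBP1 tumors and 279 to 388 CPM in shNT tumors. T cell markers were higher in 9 of 9 cases, with sums of 91.1 to 290 CPM in shXBP1 tumors and 31.1 to 64.5 CPM in shNT tumors, and natural killer cell markers in 4 of 4, with sums of 18.4 to 30.3 CPM in shXBP1 tumors and 5.96 to 8.16 CPM in shNT tumors. Macrophage markers were higher in 8 of 9 cases, with sums of 1190.5 to 2331 CPM in shXBP1 tumors and 699.5 to 1040.0 CPM in shNT tumors. Dendritic cell markers were higher in 5 of 6 tested (20.3 to 26.8 CPM in shXBP1 tumors, 11.9 to 14.7 CPM in shNT tumors) and neutrophil markers in 3 of 4 tested (24.9 to 31.2 CPM in shXBP1 tumors, 6.31 to 11.1 CPM in shNT tumors). Ly6g, a defining neutrophil marker, was below the filter, with 11 counts over the 4 shXBP1 tumors and 0 counts over the 4 shNT tumors. Of the non-leukocyte lists, endothelial markers were higher in 4 of 6 cases (101 to 112 CPM in shXBP1 tumors, 50.5 to 62.1 CPM in shNT tumors) and fibroblast markers in 5 of 7 (1748 to 2256 CPM in shXBP1 tumors, 891 to 1221.5 CPM in shNT tumors). Dcn, the most abundant fibroblast marker in shXBP1 tumors, averaged 1041 CPM there and 305 CPM in shNT tumors. The collagen genes Col1a1 and Col1a2 were not called, with log2 fold changes of 0.05 and -0.26. For B cells, Ms4a1 and Cd79a were below the filter and 1 of 2 tested markers was higher. Among 5 tested markers of muscle, fat and skin 1 was lower, the keratin Krt14. It averaged 49.4 CPM in shXBP1 tumors and 175 CPM in shNT tumors. Krt5, another keratin of that list, was below the filter, with 141 counts over the shXBP1 tumors and 3 over the shNT tumors. Most of its counts lay in shXBP1 tumors 1 and 2, at 1.18 and 3.09 CPM. Ptprc, which encodes the leukocyte antigen CD45, had 156, 193, 171 and 94.8 CPM in shXBP1 tumors 1 to 4, against 59.4, 42.6, 66.5 and 56.4 CPM in shNT tumors 1 to 4. Among shXBP1 tumors it was highest in tumor 2 and lowest in tumor 4, and among shNT tumors highest in tumor 3 and lowest in tumor 2, the same tumors as for most of the GTPases. The part of endothelial and fibroblast transcripts in the result was not tested.

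With log2 CPM of Ptprc as a covariate, a fit known from earlier results of these data, edgeR called 0 of 10 members, against 0.899% of all genes called higher. Below 0.05 before adjustment there was 1 member, Iigp1, and it was lower (log2 fold change -0.67, edgeR adjusted p = 0.191), while 7.92% of all genes were lower and 8.12% higher at that level. The log2 fold changes were positive for 5 members and negative for 5, with a median of -0.06, ran from -0.67 for Iigp1 to 0.26 for Gbp5, and their adjusted p lay between 0.191 and 0.988. The standard errors of the members were 0.862 to 1.47 times those without the covariate, against a median of 2.26 times over all genes. Ptprc did not overlap between the groups, so the covariate and the genotype cannot be fully told apart.

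As a plain ratio to Ptprc in the same tumor, chosen for description after the values had been seen, Gbp4 lay at 2.90, 2.79, 2.62 and 2.67 in shXBP1 tumors 1 to 4, against 2.55, 2.46, 2.46 and 2.23 in shNT tumors 1 to 4 (log2), higher in shXBP1 tumors without overlap by 0.32, as were 0.691% of 14612 genes. Gbp5, Gbp3, Gbp6 and Igtp overlapped, with differences from -0.20 for Igtp to 0.22 for Gbp5. Gbp2, Gbp7, Iigp1, Irgm1 and Irgm2 lay lower without overlap, by differences from -0.62 for Irgm2 to -0.39 for Gbp2, as did 77.8% of all genes.

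**Figure D5:**
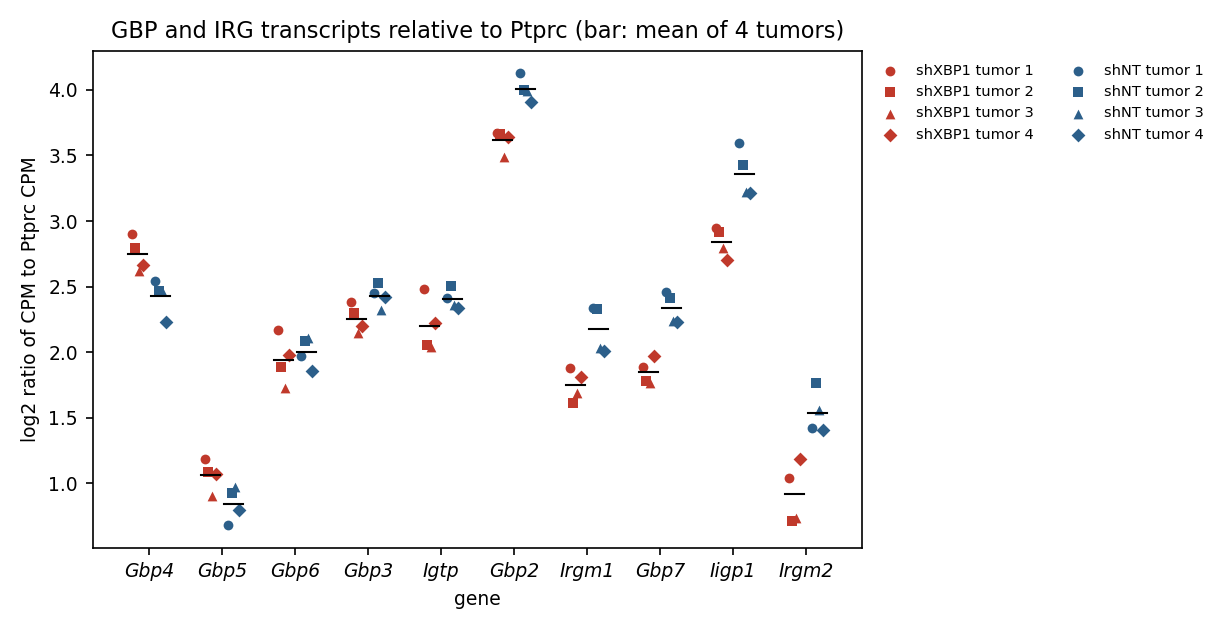
Log2 ratio of each gene's CPM to that of Ptprc in the same tumor, shXBP1 in red left of shNT in blue, with the mean of 4 tumors as a bar. Only in the Gbp4 column does each shXBP1 tumor lie above each shNT tumor, and the order is turned for Gbp2, Irgm1, Gbp7, Iigp1 and Irgm2.

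Genes beside the members on the chromosome were called at shares near those of all genes. Of the 50 nearest protein-coding genes outside the GTPase lists, 5 on each side of each of the 5 clusters, 39 were tested, 8 were higher, 7 were lower and 24 were not called, with a median log2 fold change of -0.06. Over all genes 16.9% were higher and 13.1% lower. Around Igtp and Irgm2, 0 of 7 tested neighbours were higher and 3 were lower, and around Gbp5, Gbp7, Gbp3 and Gbp2, 1 of 8 was higher, Pdlim5, and 1 was lower, Kyat3. Beside Irgm1 stood 4 of the 8 higher neighbours: Gm5431 with a log2 fold change of 1.25, Psme2b with 0.62, Olfr56 with 1.34 and Olfr1396 with 1.59. Of the 50-base stretches of Gm5431, 37.3% occur in other genes, mostly in the listed GTPase 9930111J21Rik1, so its count is uncertain as that of a single gene, and it was counted as a neighbour only because it is not in the lists. The count of Psme2b is uncertain too, with 69.3% shared, mostly with Psme2. Olfr56 shares 1.82%, mostly with Ifi47, a listed GTPase that was also higher, and Olfr1396 shares 0.277%.

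Outside the members, the 10 genes whose log2 CPM followed the members' mean profile most closely over the 8 tumors included Apol10b, Mpeg1, Cd86, Ifi47, Entpd1, Tlr2, Slfn5, Dglucy and Coro1a. Their root mean square differences from that profile were 0.071 to 0.099 log2 units, and those of the members ran from 0.070 for Gbp3 to 0.286 for Gbp4. Mpeg1, the perforin-2 of macrophages, had 425, 439.7, 371 and 224 CPM in shXBP1 tumors 1 to 4, against 160.2, 111, 169 and 134 CPM in shNT tumors 1 to 4, and Cd86, a costimulatory ligand of antigen-presenting cells, had 40.4, 45.3, 42.6 and 22.2 CPM in shXBP1 tumors 1 to 4, against 18.3, 12.3, 18.3 and 15.2 CPM in shNT tumors 1 to 4. Both were lowest in tumor 4 among shXBP1 tumors and in tumor 2 among shNT tumors, as all 10 members were. They were picked for following the members over these same tumors, so this shared order is no separate evidence.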

How the data were processed

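RNA-seq of 8 tumors, 4 per genotype label, was analysed from 1 deposited table. It holds raw counts and FPKM per gene and tumor, per the file headers; the counts were deposited without normalization, and the authors' FPKM divide by gene length and library size. The authors' DESeq2 log2 fold changes and adjusted p-values stand in the same table, per the file headers. Per the submitters' processing notes the genome build was GRCm38. The aligner, counting tool, strand setting, annotation and gene lengths were not given in the sources used here. Totals were 29070605 to 36012997 counts. Here, filterByExpr left 14907 genes, TMM factors lay between 0.980 and 1.04, and the groups were tested by edgeR 4.0.16 quasi-likelihood (R 4.3.3; robust, no covariate), Benjamini-Hochberg adjusted over all genes. The procedure was tested on simulated data. DESeq2 1.42.0 and limma 3.58.1 voom served as alternatives, with other size factors, filters, a replicate block, the Ptprc covariate and leaving out each tumor. Coordinates and overlaps come from GENCODE M21 and promoters from RefSeq. Shared stretches are 50-base words of its transcripts. The members and lists were chosen with earlier results of these data known. Named were all members, genes of the GTPase and signalling lists, up to 4 genes of each other list by smallest p, and the 10 genes nearest the members' profile. Genes beyond these (such as flanking, uncalled or zero-count genes) were named after their values were seen. Protein features were not analysed here, and the values of some listed genes are not reported here.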

Additional observations from a re-analysis of the deposited data

Results flagged for a closer look

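In 20 groups of 4 tumors (10 members in each genotype), 1 value stood far from the rest of its group by Dixon's criterion, which chance alone meets in about 1 of 20 groups. Irgm1 had 333 CPM in shXBP1 tumor 4, against 549.6 to 591 CPM in the other shXBP1 tumors. In that tumor all 10 members, Ptprc and Ifng were the lowest of the group. Without it 10 of 10 members were still called higher, against 19.2% of 15101 genes.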

How the results depend on the processing

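The direction of all 10 members held in 16 of 16 alternatives without the Ptprc covariate (DESeq2, limma voom, other size factors, no filter or 10 CPM in 4 tumors, no robust estimation, the replicate block and each tumor left out). In these 9 members were always called, and Iigp1 in 10 of 16: it also missed the threshold without the filter (adjusted p = 0.0528), where 9 members were called. The number of members called was 9 to 10 with 1 tumor left out. The share of all genes called was computed only for the main fit, the Ptprc covariate and the fit without shXBP1 tumor 4. Counts called under the other settings therefore have no such share to be read beside. The Ptprc covariate turned round Gbp2 (-0.37), Gbp3 (-0.13), Gbp7 (-0.21), Iigp1 (-0.67) and Irgm1 (-0.13). With it 0 members and 0 other GTPases were called in either direction. Called higher were 1 interferon-gamma signalling gene, 0 MHC class I genes and 0 type I interferon stimulated genes, against 0.899% of all genes. Lower calls were not counted for the signalling, MHC class I and type I lists. Pairs of members called fell to between 0 and 0 of 45 with 1 tumor left out, since too few pairs then reach the smallest exact permutation p for any to pass the adjustment, and numbered 27 on raw library totals. CPM per kilobase kept 2 genes at their FPKM rank in shXBP1 tumors, and the cause was not tested. Tumors of the same number did not vary together (correlations of -0.07, -0.14, -0.02 and -0.06), although this check cannot exclude that the numbers pair them. With the replicate block 10 members were called (Iigp1 0.90, edgeR adjusted p = 0.0205) and 14 other GTPases were higher. Each member had at least 12486 counts over the 4 tumors of a group, so counting error is small beside the spread between tumors.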
